A study of Mus musculus with 57 samples.

Results

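The visceral endoderm, the part of the extraembryonic endoderm that covers the early embryo, makes many of the serum proteins that the liver makes later. This report follows 8 such genes, Afp, Alb, Ttr, Rbp4, Trf, Apoa1, Apob and Apoe, of 21951 annotated protein-coding genes, and the peaks of DNA-binding factors around them. A peak was counted for a gene when its summit lay within 50 kb of the gene's transcription start site (TSS), on either side. GATA6, a zinc finger factor that recognises the word GATA in DNA, drives primitive endoderm (PrE) fate, and the visceral endoderm arises from the PrE. These genes are products of the mature tissue, so the question here was which of them already had GATA6 nearby 2 h after it was switched on.

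The cells were KH2 mouse embryonic stem (ES) cells of the line TRE:GATA6-DSREd2, with the strain given as C57BL/6. The methods of the study name a C57BL/6 strain only for the mice that gave blastocysts, which were not analysed here. In the ES cells doxycycline (Dox) turns on a transgene for FLAG-tagged GATA6 together with the red protein DsRed2. All groups carried this transgene, which is present as a single copy. At 0 h the cells were in 2i medium without Dox, and for all later time points they were in serum medium with LIF and Dox, with Dox withdrawn after 12 h for the 24 and 48 h samples, so time after Dox and the change of medium cannot be told apart. Binding was mapped by CUT&RUN, in which an antibody brings a nuclease to its target and the DNA released there is sequenced. There were 15 groups with 2 peak lists each. GATA6 was profiled before Dox and after 2, 4, 8 and 48 h, the pluripotency factors NANOG and SOX2 before Dox and after 2, 4 and 8 h, and the later PrE factors GATA4 and SOX17 only after 24 h. The study describes its replicates as independent experiments, and the spread given is that between the 2 lists of a group.

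The lists differed widely in size, which bears on every peak number below. They held 86 to 79358 peaks, with 79358 and 62683 for GATA6 at 2 h, 5933 and 9767 at 48 h, and only 86 and 882 at 0 h. Read totals are not part of the lists, and those that the study gives in its supplement were not used here. The background coverage that the peak caller used, in fragments per base, could be recovered for 28 lists. It was 0.287 and 0.315 in the GATA6 lists at 0 h and 0.928 to 1.34 in the other GATA6 lists, of which the 48 h lists had 0.928 and 1.22. Coverage was 0.865 to 1.31 for NANOG, 0.29 to 0.692 for SOX2, and 1.23 and 1.55 for SOX17. In 6 GATA6 lists, those of 4, 8 and 48 h, the library named in the peaks is not that of the record, and times here follow the library named. By the record the lists called 4, 8 and 48 h here would be those of 8, 48 and 4 h.

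Of the sites described below, 5 are shown as sequence. Each is 201 bases of the plus strand of GRCm38 centred on a summit. Capitals mark words searched on both strands, namely AGATAA for GATA factors with its variant AGATAG, the related TGATAA together with its variant TGATAG, the HNF1 word GTTAAT and the SOX word AACAAT. The site names give the gene and the distance of the summit from its TSS in bp, with a plus sign downstream. The first is the GATA6 2 h site near Rbp4 with the highest mean fold (chr19:38094697-38094897), with 3 GATA words. The next is the Apoe site that GATA6 held from 2 to 48 h (chr7:19695353-19695553), with 2 GATA words. Then come the 2 h site near Apoe with the highest mean fold (chr7:19686881-19687081) and the site bound in most groups (chr7:19715625-19715825). The last is an Apoa1 site that had GATA6 peaks only at 48 h (chr9:46246871-46247071). These last 3 hold none of the words.
Rbp4+30484: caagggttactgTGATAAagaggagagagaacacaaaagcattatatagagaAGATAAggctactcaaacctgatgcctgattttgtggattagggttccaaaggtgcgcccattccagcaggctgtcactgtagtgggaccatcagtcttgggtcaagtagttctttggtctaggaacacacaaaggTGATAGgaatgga
Apoe+3735: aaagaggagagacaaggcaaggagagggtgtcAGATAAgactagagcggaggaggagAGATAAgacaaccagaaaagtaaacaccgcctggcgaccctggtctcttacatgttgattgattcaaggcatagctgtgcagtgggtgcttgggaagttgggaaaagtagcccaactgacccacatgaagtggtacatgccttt
Apoe+12207: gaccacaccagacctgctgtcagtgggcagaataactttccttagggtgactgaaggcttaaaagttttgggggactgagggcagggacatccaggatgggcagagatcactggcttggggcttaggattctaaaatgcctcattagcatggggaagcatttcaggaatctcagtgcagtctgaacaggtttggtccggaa
Apoe-16537: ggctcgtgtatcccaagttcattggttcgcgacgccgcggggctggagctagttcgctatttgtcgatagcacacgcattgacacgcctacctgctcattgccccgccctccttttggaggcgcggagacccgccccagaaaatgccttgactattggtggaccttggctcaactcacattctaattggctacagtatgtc
Apoa1+18391: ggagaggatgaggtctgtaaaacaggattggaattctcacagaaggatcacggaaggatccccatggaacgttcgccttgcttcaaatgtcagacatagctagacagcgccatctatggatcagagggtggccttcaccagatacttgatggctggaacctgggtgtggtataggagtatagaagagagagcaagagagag

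At 2 h, 5 of the 8 genes had a GATA6 peak within 50 kb in both lists, namely Apoe, Ttr, Trf, Rbp4 and Apoa1. Afp, Alb and Apob had no GATA6 peak in either 2 h list. Of all protein-coding genes 78.3% met the same criterion at 2 h, so the share among the serum protein genes was not above the background. The median number of 2 h peaks, taken as the mean of both lists, was 2.5 over the 8 genes and 3.5 over all protein-coding genes. Within 5 kb of the TSS, Apoe was the only one of the 8 with a peak in both lists, while 35.9% of all genes had this. At 0 h no gene of the 8 had a GATA6 peak in both lists (0.0638% of all genes did), and the 1 peak found, in replicate 2, lay 49506 bp upstream of Alb. The 0 h libraries were shallower, and the part of this in the low number was not tested.

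**Figure D1:**
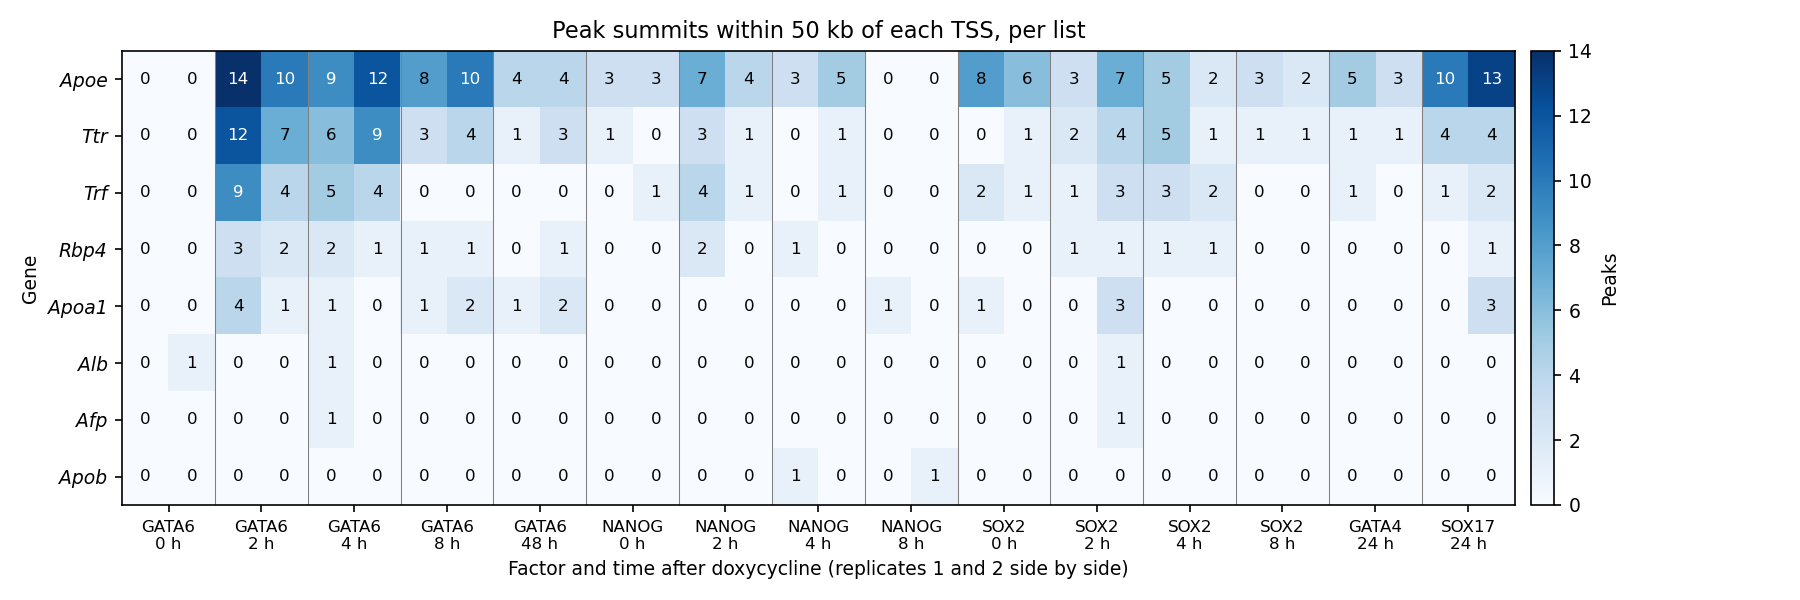
Number of peak summits within 50 kb of the TSS of each gene (rows) in each of the 30 lists (columns, with both replicates of a factor and time side by side). The numbers are peaks per list, and the row of Apoe is the fullest while those of Alb, Afp and Apob hold at most 1 peak in a list.

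Apoe encodes apolipoprotein E, a ligand of lipoprotein receptors (ENSMUSG00000002985.16, chr7:19696109-19699188, minus strand). It had 14 and 10 GATA6 peaks at 2 h in replicates 1 and 2, 9 and 12 at 4 h, 8 and 10 at 8 h, and 4 and 4 at 48 h, against 0 and 0 at 0 h. Both 48 h lists lay below every list of 2 to 8 h, whose ranges overlapped each other. The peak number differed over time by the exact permutation test on all 10 GATA6 lists (F = 109, p = 0.00741, adjusted p = 0.0262 over 18564 genes). The test called 50.9% of the genes tested, and it runs on numbers that follow list size. The TSS of 6 other protein-coding genes, among them Apoc1, Apoc2, Apoc4 and Tomm40, lie in the same window, so its peaks cannot be given to Apoe alone.

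Ttr encodes transthyretin, a carrier of thyroid hormone and of retinol-binding protein (ENSMUSG00000061808.4, chr18:20665280-20674321, plus strand). It is the only protein-coding TSS in its window. It had 12 and 7 GATA6 peaks at 2 h, 6 and 9 at 4 h, 3 and 4 at 8 h, 1 and 3 at 48 h, and none at 0 h. The lists of 2 and 4 h overlapped and lay above those of 8 and 48 h. The same test called this difference (F = 19.4, exact permutation p = 0.00423, adjusted p = 0.0248). Without the 0 h lists, an alternative added after the data were seen, neither gene passed (exact permutation test, adjusted p = 0.1 for Ttr and 0.139 for Apoe), and no gene of the series did.

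Trf encodes transferrin, the iron carrier of serum (ENSMUSG00000032554.15, chr9:103204001-103230444, minus strand). It had 9 and 4 GATA6 peaks at 2 h and 5 and 4 at 4 h, and none in any list of 0, 8 or 48 h. Its groups thus fell into time points with and without peaks, yet the adjusted p did not pass 0.05 (F = 39.4, exact permutation p = 0.0476, adjusted p = 0.0671). Lists without a peak are interchangeable in this test, which limits how small its p could become here. The TSS of Srprb and Gm20425 lie in the same window. With peaks given only to the nearest protein-coding TSS, Trf had 1 and 0 at 2 h.

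Rbp4 encodes the retinol-binding protein that travels with transthyretin (ENSMUSG00000024990.13, chr19:38116629-38125281, minus strand). It had 3 and 2 GATA6 peaks at 2 h, 2 and 1 at 4 h, 1 and 1 at 8 h, and 0 and 1 at 48 h, against 0 and 0 at 0 h. Neighbouring time points from 2 h on overlapped, and the test did not call the gene (exact permutation p = 0.0762, adjusted p = 0.103). The TSS of Ffar4 and Pde6c lie in the same window. With peaks given only to the nearest protein-coding TSS, Rbp4 had 0 and 0 at 2 h.

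Apoa1 encodes the main apolipoprotein of high-density lipoprotein (ENSMUSG00000032083.8, chr9:46228580-46230466, plus strand). It had 4 and 1 GATA6 peaks at 2 h, 1 and 0 at 4 h, 1 and 2 at 8 h, and 1 and 2 at 48 h. The values of all 4 induced time points overlapped, and the exact permutation test gave p = 0.21 (adjusted p = 0.244). The peaks of the 2 h lists lay apart, so that no stretch of DNA in its window held a peak of both. The TSS of Apoc3, Apoa4, Apoa5 and Zpr1 lie in the same window. With peaks given only to the nearest protein-coding TSS, Apoa1 kept 4 and 1 at 2 h.

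Afp encodes alpha-fetoprotein, a main serum protein of the fetus, and Alb encodes serum albumin. They are neighbours (ENSMUSG00000054932.6, chr5:90490737-90508907, and ENSMUSG00000029368.10, chr5:90460897-90476602, both plus strand) and share most of their windows. Afp had 2 peaks and Alb 3 over all 30 lists, each in 1 list only, and the 2 peaks of Afp are also counted for Alb. The GATA6 peak nearest to Alb lay 760 bp upstream of its TSS, in replicate 1 at 4 h, with a fold of 3.08. Alb was not called by the exact permutation test (adjusted p = 1), but with so few peaks no arrangement of them could have been called. Afp had too few lists with a peak to be tested.

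Apob encodes the structural protein of low-density lipoprotein (ENSMUSG00000020609.14, chr12:7977648-8016835, plus strand). No GATA6, GATA4, SOX17 or SOX2 list held a peak in its window. Its 2 peaks, in introns of Apob, belonged to replicate 1 of NANOG at 4 h and replicate 2 of NANOG at 8 h. With a window of 100 kb it had 2 and 2 GATA6 peaks at 2 h, while Afp and Alb still had none.

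Taken over the 8 genes and counting each peak in a shared window once, the GATA6 lists held 42 and 24 peaks at 2 h (33 ± 12.7, SD, n = 2). They held 24 and 26 at 4 h, 13 and 17 at 8 h, and 6 and 10 at 48 h. By the recorded times the means of 4, 8 and 48 h would be 8, 25 and 15 in place of 25, 15 and 8. A GATA6 peak in both lists was found at 4 of the 8 genes after 4 h (71.2% of all genes), 4 after 8 h (57.9%) and 3 after 48 h (20.6%). The genes at 48 h were Ttr, Apoa1 and Apoe.

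The order of the time points was not the same when lists were set to a like size. Per 1000 peaks of a list, the 8 genes had 0.529 and 0.383 peaks at 2 h and 1.01 and 1.02 at 48 h. Among the 10000 peaks of each list with the highest −log10 q, the numbers near the 8 genes were 5 and 4 at 2 h, 3 and 5 at 4 h, 4 and 7 at 8 h, and 6 and 10 at 48 h, where the lists hold fewer than 10000. In that setting only Ttr and Apoe had a peak in both 2 h lists (31.6% of all genes), and Ttr, Apoa1 and Apoe in both 48 h lists (20.6%). The adjusted p was then 0.348 for Ttr and 0.197 for Apoe, by the same exact permutation test, and the mean of both was higher at 48 h than at 2 h, with 4 and 3 against 4 and 4 peaks for Apoe and 1 and 1 against 1 and 3 for Ttr in the 2 and 48 h lists.

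**Figure D2:**
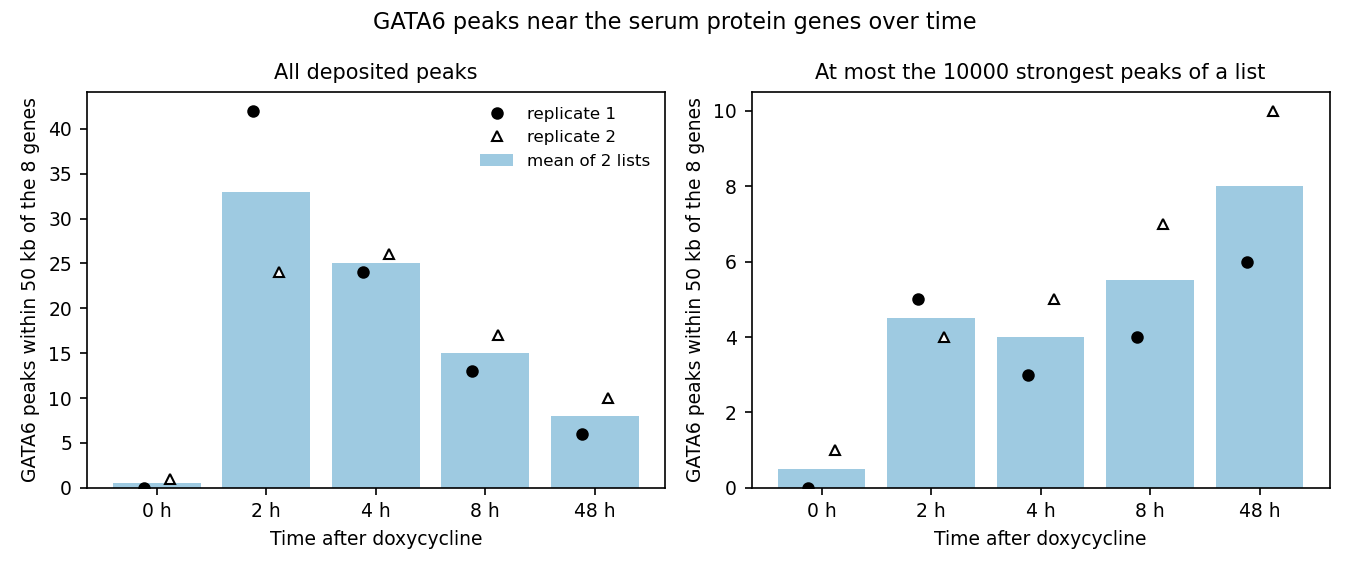
GATA6 peaks within 50 kb of the 8 genes at each time after Dox, with all deposited peaks on the left and at most the 10000 strongest peaks of each list on the right. Bars are means of 2 lists and symbols are the lists. On the left the number falls from 33 at 2 h to 8 at 48 h, and on the right the 48 h lists, with 6 and 10 peaks, are exceeded only by replicate 2 of 8 h, with 7, which lies above replicate 1 of 48 h.

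Overlapping peaks of all lists were merged into sites to ask which DNA was bound. There were 91 sites near the 8 genes, of which 50 held a peak of 1 list only. GATA6 held 21 sites in both 2 h lists, 10 near Apoe, 5 near Ttr, 4 near Trf and 2 near Rbp4. The other four genes had none. In either 2 h list it held 45 sites. Over all sites of the series, the shares held by 1 list only or in either 2 h list were not determined. These counts are therefore descriptions only. The median of the mean 2 h fold, that is the summit's enrichment relative to local background, was 7.04 at the 21 sites and 6.92 at all 44770 sites bound in both 2 h lists.

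Of the 21 sites, 2 held GATA6 peaks in both lists at every time from 2 to 48 h. The share of all 2 h sites that did so was not determined, but 5.79% of them held GATA6 in both 48 h lists. The site Apoe+3735 (chr7:19694635-19696476), between Apoe and Apoc1, had folds of 21.5 and 9.65 at 2 h, 9.34 and 19.9 at 4 h, 11.3 and 14.6 at 8 h, and 22.1 and 20.1 at 48 h. The spread between the 2 h lists thus covered nearly the whole range of the 8 lists. It also held GATA4, with folds of 7.51 and 7.7, and SOX17, with 9.11 and 14. No NANOG or SOX2 list had a peak there at 0 h. The sequence printed above shows its GATA words, both AGATAA, on the left of the summit.

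The other was 16340 bp upstream of Ttr (chr18:20648483-20649551), in an intron of the antisense transcript Gm16090. Its GATA6 folds were 5.27 and 3.44 at 2 h, 4.1 and 9.21 at 4 h, 6.29 and 6.28 at 8 h, and 8.01 and 9.2 at 48 h. It held GATA4 with 7.2 and 6.36 and SOX17 with 11.1 and 11.4, and it had 4 GATA words and 1 GTTAAT. SOX2 was there as well, with 6.09 and 4.3 at 8 h and with 8.76 in replicate 1 at 4 h. At 2 h this was among the weaker sites, since 88.3% of all 2 h sites had as high a mean fold.

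By mean fold over both lists, other sites came first at 2 h. Near Apoe it was Apoe+12207 (chr7:19686591-19687657), nearest to the TSS of Apoc4, with 15.8 ± 6.35 (SD, n = 2), which does not differ beyond the spread from Apoe+3735 (15.6 ± 8.35) or from the site 48893 bp upstream (15.5 ± 2.82). Each list alone put another of these first, Apoe+3735 in replicate 1 (21.5 against 20.3) and the upstream site in replicate 2 (17.5 against 11.3). Apoe+12207 held peaks in both lists of 10 groups, including NANOG at 0 h (6.5 and 6.34) and SOX2 at 0 h (14.4 and 9.56), and at 48 h GATA6 was left in replicate 2 alone, with 3.24. Near Ttr it lay 48160 bp downstream, in an intron of B4galt6, with folds of 14.3 and 9.92 at 2 h, 7.6 and 8.43 at 4 h, 3.49 and 7.9 at 8 h and no peak at 48 h. Near Rbp4 it was Rbp4+30484, 2274 bp from the TSS of Ffar4, with 11.5 and 6.63 at 2 h, 4.96 and 12.4 at 4 h, 3.84 and 5.27 at 8 h and no peak at 48 h or of any other factor. In replicate 2 at 2 h the site 28757 bp downstream of Rbp4 came first, with 6.74 against 6.63. Near Trf the first by mean fold lay 45483 bp downstream in an exon of Rab6b, with 8.98 and 8.05 at 2 h, 3.52 and 6.65 at 4 h, and none later. Its 2 h range overlapped that of the site 46271 bp upstream, with 8.12 and 7.58. These sites thus lay nearer to other genes than to the serum protein gene they were counted for.

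Within 5 kb of the TSS of one of the 8 genes themselves, 2 sites held GATA6 in both 2 h lists, and both were counted for Apoe, although the first lies nearer to the TSS of Apoc1 (2793 bp). Apoe+3735 is described above. The other, 872 bp downstream of the TSS in an exon, had folds of 8.57 and 5.13 at 2 h, 7.45 and 6.8 at 4 h, 4.57 and 4.67 at 8 h and no peak at 48 h. SOX2 held it at 0 h, with 6.46 and 8.27.

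**Figure D3:**
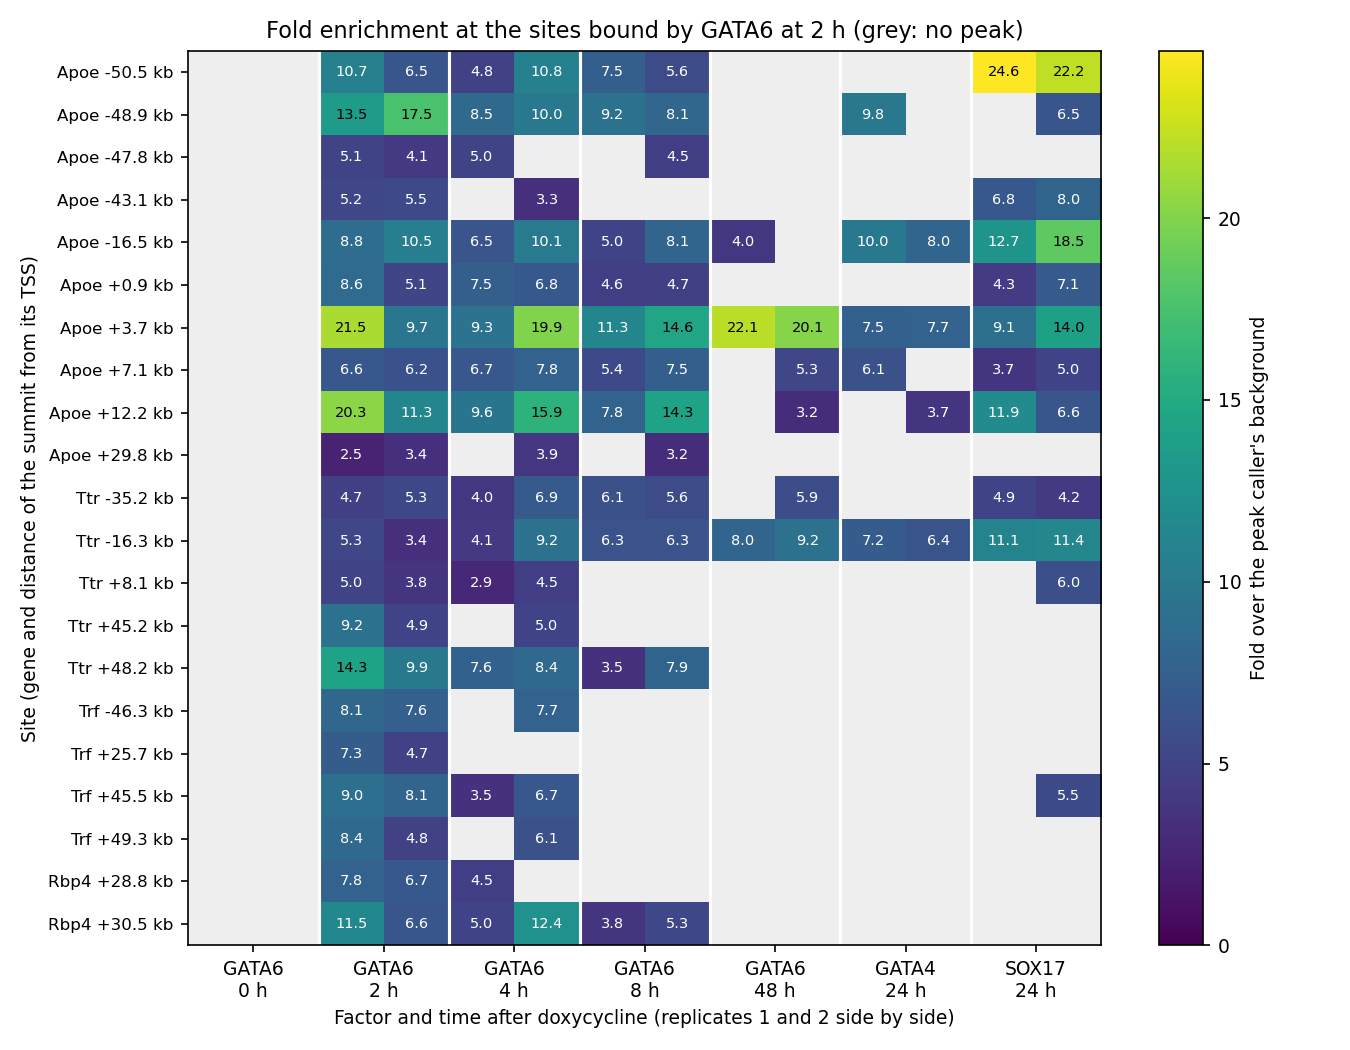
Fold enrichment of GATA6, GATA4 and SOX17 in each list at the 21 sites bound in both GATA6 2 h lists, with one row per site, named by gene and distance from its TSS in kb, and grey where a list has no peak. No site has a peak at 0 h, and the rows at +3.7 kb from Apoe and −16.3 kb from Ttr are the ones filled in every list from 2 h on.

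A site near Apoa1 had GATA6 peaks only in the lists called 48 h here, which by the record are those of 4 h. Apoa1+18391 (chr9:46246803-46247055), 6275 bp from the TSS of Apoa4, had GATA6 folds of 5.56 and 4.21 at 48 h and no peak in any other list. It was the only 1 of the 3 sites near the 8 genes bound in both 48 h lists that had no GATA6 peak at 2 h, and of all 4177 such 48 h sites 28.6% had none. Nearer to Apoa1, at 1256 bp upstream, GATA6 had folds of 3.2 and 6.82 at 8 h and 3.49 in replicate 1 at 2 h. That site was not bound at 4 or 48 h.

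The 21 sites were then compared with all GATA6 2 h sites for the other groups. GATA6 held 13 of them in both lists at 4 h (61.9%, against 63.8% of all 2 h sites), 11 at 8 h (52.4% against 38.0%) and 2 at 48 h (9.52% against 5.79%). At 0 h it held 0 of the 21, and 0.00670% of all 2 h sites. SOX17 at 24 h held 9 (42.9% against 25.4%), 7 near Apoe and 2 near Ttr, and GATA4 at 24 h held 3 (14.3% against 5.61%). The 21 sites cluster around 4 genes and are not independent of each other, so these shares are descriptions.

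NANOG held 2 of the 21 in both lists at 0 h (9.52% against 13.2%), 5 at 2 h (23.8% against 36.8%), 3 at 4 h (14.3% against 15.1%) and 0 at 8 h (against 1.08%). SOX2 held 6 at 0 h (28.6% against 26.1%), 4 at 2 h (19.0% against 33.5%), 2 at 4 h (9.52% against 35.7%) and 3 at 8 h (14.3% against 15.0%). The value of SOX2 at 4 h depends on asking for both lists, since replicate 1 alone held 10 of the 21 (47.6% against 59.9%) and replicate 2 alone 4 (19.0% against 39.4%). All 6 of the 0 h sites of SOX2 and both of NANOG were near Apoe. The site bound in most groups, 12 of the 15, was Apoe-16537 (chr7:19715415-19716357), 287 bp from the TSS of Tomm40, with GATA6 folds of 8.81 and 10.5 at 2 h. NANOG and SOX2 were already there at 0 h, with 7.86 and 6.93 and with 13 and 12.1.

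**Figure D4:**
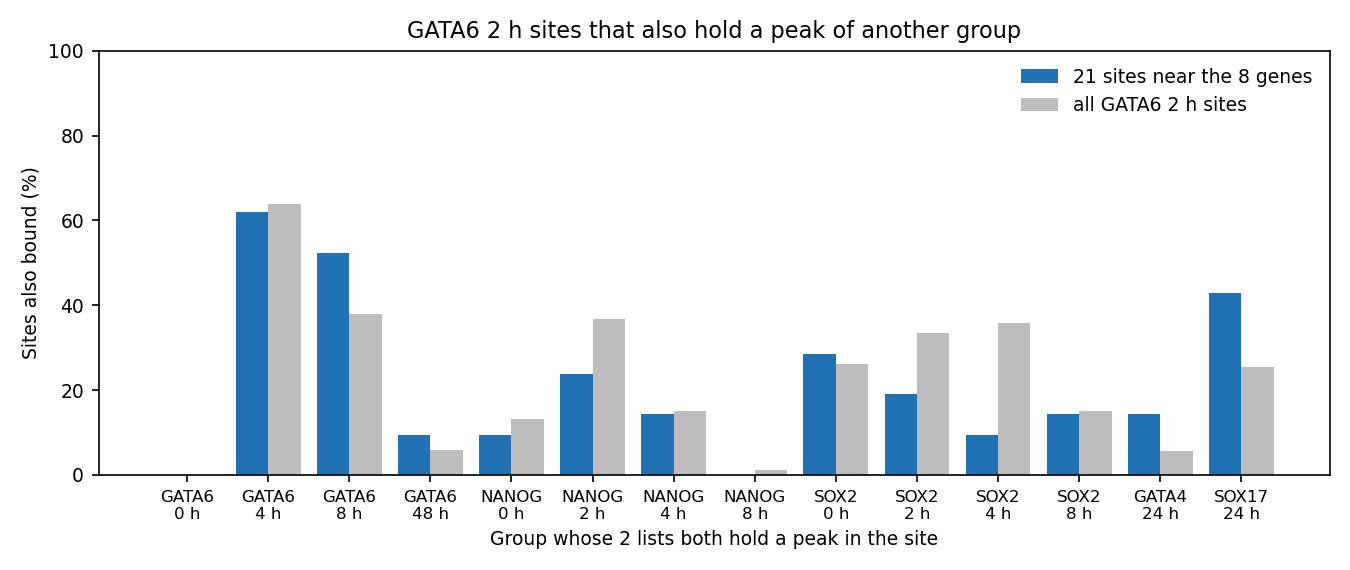
Percent of the GATA6 2 h sites that also held a peak in both lists of each other group, for the 21 sites near the serum protein genes (blue) and for all GATA6 2 h sites (grey). The blue bar is higher for SOX17 at 24 h (42.9% against 25.4%) and lower for SOX2 at 4 h (9.52% against 35.7%, or 47.6% and 19.0% in its lists alone against 59.9% and 39.4%), and each blue bar rests on 21 sites.

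SOX17 held 12 of the 91 sites in both lists, of which 3 had no GATA6 peak at 2 h (25.0%, against 26.1% of all 19084 SOX17 sites). They lay 6769 bp upstream of Ttr (folds of 5.32 and 7.63), 29740 bp upstream of Apoe (5.15 and 5.1) and 36658 bp upstream of Apoe (10.8 and 14). The last also held peaks in 1 list each of GATA4 (5.19), NANOG at 4 h (3.99) and SOX2 at 2 h (3.49). By gene, SOX17 had 10 and 13 peaks near Apoe, 4 and 4 near Ttr, 1 and 2 near Trf, 0 and 3 near Apoa1 and 0 and 1 near Rbp4. It thus had peaks in both lists at 3 of the 8 genes, against 61.4% of all genes. GATA4 did so at 2, Apoe (5 and 3 peaks) and Ttr (1 and 1), against 19.9% of all genes. GATA4 at 24 h and GATA6 at 48 h are at different times, and their lists hold few peaks.

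NANOG and SOX2 had peaks near a smaller share of the 8 genes than of all genes, in each group. The groups rest on the same 8 genes, of which Afp and Alb share most of their windows, so they are not separate evidence. With 8 genes some counts lie near the share of all genes, such as 0 against 5.89%, and the differences were not tested. NANOG had peaks in both 0 h lists at 1 gene (30.0% of all genes), and after 2 h at 3 (62.3%), after 4 h at 1 (35.2%) and after 8 h at 0 (5.89%). For SOX2 it was 2 genes before Dox (62.6%), 4 after 2 h (60.9%), 4 after 4 h (62.0%) and 2 after 8 h (37.4%). Apoe was among them in every group with any, with 3 and 3 NANOG peaks and 8 and 6 SOX2 peaks at 0 h. For Apoe the NANOG numbers were 7 and 4 at 2 h, 3 and 5 at 4 h, and 0 and 0 at 8 h, which did not pass the adjusted threshold (exact permutation p = 0.0571, adjusted p = 0.294). No gene of the series was called over time for NANOG or SOX2 (0.00% of 16868 and 0.00% of 18614 genes) by this exact permutation test, whose smallest p with 8 lists is 0.00952. An unadjusted p of at most 0.05 was reached by 2199 and 560 genes, none of them among the 8.

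The words in the sites were read as a description. Of the 21 sites, 11 had a GATA word within 100 bp of the summit (52.4%, against 54.0% of 44768 GATA6 2 h sites), and 3 had the SOX word AACAAT (14.3% against 13.7%). The HNF1 word GTTAAT was in 6 (28.6% against 6.68%), which were 1 site near Ttr, 1 near Rbp4, 2 near Trf and 2 near Apoe. HNF1 factors control many serum protein genes in the liver. The 6 sites lay 16340 bp upstream of Ttr, 28757 bp downstream of Rbp4, 25737 bp downstream and 46271 bp upstream of Trf, and 43129 and 50536 bp upstream of Apoe. In the last the summit lay just outside the 50 kb window, and the site was counted for another summit inside it. Of the 6, only the Ttr site lay nearest to the TSS of the gene it was counted for. The others lay nearer to the TSS of another protein-coding gene. Sites around the same gene are not independent, and binding of HNF1 factors was not measured.

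Promoters of 6 of the 8 genes were in the RefSeq table (GRCm38.p6), 250 bases before to 50 after the start. Those of Afp, Alb, Rbp4, Apoa1 and Apob had no overlapping peak in any of the 30 lists. The share of all promoters without a peak was not determined, so this is a description only. Alb had 1 GATA word and 1 GTTAAT there, Afp 1 GTTAAT and Apoa1 2 GATA words, and 29.8% and 7.10% of 32851 promoters hold such words. Apoe has 3 promoters in the table. The most upstream was overlapped by peaks of 12 lists, among them all GATA6 lists of 2, 4 and 8 h, and held none of the words. The most downstream was overlapped by peaks of 10 lists, again with all of these GATA6 lists, and held 1 GATA word and 1 GTTAAT. The one between them had peaks of 7 lists and none of the words.

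The other genes of the same kind and the factors above them were read in the same way. Of 18 other serum and lipoprotein genes, 14 had a GATA6 peak in both 2 h lists, close to the 78.3% of all genes, and 5 of the 18 share a window with Apoe or Apoa1. Those with the most peaks were Apoc2 (12 and 9), a cofactor of lipoprotein lipase that shares the Apoe window, and Apoa2 (13 and 7) and Apoc1 (12 and 8). Gc, Ambp and Cp, which encode the vitamin D-binding protein, the precursor of alpha-1-microglobulin and bikunin, and ceruloplasmin, had none at 2 h, and Ambp had 1 and 3 at 48 h. Of 10 genes for endoderm transcription factors all 10 had a peak in both 2 h lists (78.3% of all genes), among them Eomes (11 and 9), Gata4 (9 and 8) and Gata6 (9 and 8). The median of the mean 2 h peak number was 6.25 in that list and 2.5 in the serum and lipoprotein list.

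Some genes far from the 8 had a like pattern of peak numbers over the 30 lists. By Pearson's r of log2(peak number + 1), the most alike were Syngr2 for Apoe (r = 0.962), Mlxip for Trf (r = 0.943), Rab11fip1 for Ttr (r = 0.913) and Jcad for Apoa1 (r = 0.816). All points share the libraries and their list sizes, and Jcad had only 7 peaks over all lists.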

How the data were processed

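The 30 peak lists come from CUT&RUN in duplicates. According to the methods of the study, the authors used Bowtie2 to align paired reads to mm10, removed blacklisted regions, kept duplicates, used short fragments and called narrow peaks for each library with MACS against a control CUT&RUN library. Each deposited peak has a fold (a ratio over local background), −log10 p and −log10 q values, and a summit offset, and each list belongs to a single library. The titles of both GATA6 48 h libraries carry the word merged, and what was merged in them was not determined. All q values were at or below 0.05. The other 27 of 57 samples were not analysed here.

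Genes and the 5′ ends of their records came from GENCODE vM21, and sequence from GRCm38, the same build (0 peaks lay outside its chromosomes). Coordinates are 1-based. Sites were merged runs of overlapping peaks of all lists. The background coverage was recovered from pairs of fold and p. It could not be recovered for GATA4. A group was taken as bound where both lists had a peak. The peak number per gene over time was tested, as log2(peak number + 1), with an exact two-sided permutation test that went through every arrangement of the lists (945 for GATA6, 105 for NANOG and SOX2, counting equivalent ones as 1) and Benjamini-Hochberg adjustment over all protein-coding genes with a peak in at least 2 lists. The smallest p is 0.00106 for 10 lists and 0.00952 for 8. With 2 lists against 2 the exact permutation test cannot reach 0.05, and no such pair was compared by a test. The test was checked on simulated peak numbers that did not follow list size, so the check does not cover that feature of these lists. The 8 genes and the lists were chosen with earlier results of these data known.

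Named were the 8 genes, for each the site with the highest mean GATA6 fold at 2 h among sites bound in both 2 h lists and every such site within 5 kb, the genes of the other lists with no GATA6 2 h peak or among the 3 with most, and the most alike gene more than 100 kb away for genes with at least 20 peaks. Other sites were chosen after their values were seen. The values of 1 gene of the transcription factor list are not reported here. Alternatives were windows of 5 and 100 kb, −log10 q of at least 5, the top 10000 peaks, other TSS rules, raw peak numbers, a replicate block and leaving out lists. Python 3.11.15, numpy 2.4.6, pandas 2.3.3 and scipy 1.17.1 were used.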

Additional observations from a re-analysis of the deposited data

How the results depend on the processing

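The number of the 8 genes with a GATA6 peak in both 2 h lists was 1 with a window of 5 kb, 2 with the top 10000 peaks and 3 when a peak was given only to its nearest protein-coding TSS (Ttr, Apoa1 and Apoe), against 5. It was 4 to 6 with a window of 100 kb, with −log10 q of at least 5 (without Apoa1), with any transcript start and without either replicate. The mean number of 2 h peaks, 33, was 5.5 with 5 kb, 97.5 with 100 kb, 17.5 with −log10 q of at least 5, 4.5 with the top 10000 peaks, 13 with the nearest TSS only, and 24 to 42 without a replicate.

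The genes called for GATA6 over time, 9448, were 15397 with 100 kb and 5741 with −log10 q of at least 5. They were 0 with 5 kb and 0 with the top 10000 peaks, where 3731 and 3839 genes had an unadjusted exact permutation p of at most 0.05. Among alternatives added after the data were seen, they were 0 without the 0 h lists (7501 genes at an unadjusted p of at most 0.05) and 5939 with peak numbers per 10000 peaks of the list. Without single lists they were 7216 to 9233. The order of 2 and 48 h turned for Ttr (exact permutation test, adjusted p = 0.348) and Apoe (0.197) with the top 10000 peaks, and for Ttr (0.0526) and Apoe (0.0297) per 10000 peaks. Over its alternatives other than these, the adjusted p went up to 0.1 for Ttr and 0.139 for Apoe. The cause of these changes was not tested. Rbp4, Trf and Apoa1 passed 0.05 with 100 kb (0.00978, 0.0284 and 0.00978), Trf also without GATA6 2 h replicate 2 (0.0353) and Rbp4 without GATA6 48 h replicate 2 (0.0402).

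With the replicate block 0 genes were called for GATA6 (9304 at an unadjusted p of at most 0.05), and the adjusted p was 0.078 for Ttr and 0.0804 for Apoe. The lists share only a number: same-numbered lists of different times correlated at −0.05 to 0.03 for GATA6, −0.03 to 0.01 for NANOG and −0.09 to 0.04 for SOX2. For NANOG and SOX2 0 genes were called in every alternative run. Of the 21 sites, 2 were bound at 4 h and 11 at 48 h by the recorded times. With 1 list of the other group in place of both, a choice made after the data were seen, 10 or 4 of them held SOX2 at 4 h, against 2, and up to 5 held GATA6 at 48 h (against 2), 5 NANOG at 0 h (2), 10 NANOG at 2 h (5), 5 NANOG at 4 h (3), 11 SOX2 at 2 h (4), 5 SOX2 at 8 h (3) and 5 GATA4 (3).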
